A study of Mus musculus with 24 samples.

Results

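The 57 genes described here act in DNA replication and mitosis and were taken from a written list by gene symbol. All 57 were measured, among 13499 genes, each by the probe set of highest mean over the arrays. Of these, 8 are replication genes (Mcm3, Mcm4, Mcm6, Pcna, Rrm2, Tk1, Cdc6 and Cdc45) and 49 are other cell cycle genes, most of them mitotic. The series profiled right lung lobe RNA of 24 mice of 6 inbred strains, 17 carrying a TGF-β1 transgene (TG) and 7 wild type (WT), to look for genetic modifiers of lung fibrosis. All 24 mice, WT included, drank doxycycline for 2 weeks, the drug that induces the transgene. The strains A/J, AKR/J, BALB/cJ, C3H and 129 (labelled S129) each had 3 TG mice and 1 WT mouse, and C57BL/6J had 2 TG and 2 WT mice. The series design calls A/J, AKR/J and C57BL/6J fibrosis-prone and BALB/cJ, C3H and 129 fibrosis-resistant, and that naming is used here. The fibrosis code in the sample labels names these sets the other way round, and under it the sign of each prone minus resistant value turns. The promoter and cell type that drive the transgene, and the age and sex of the mice, are not given in the sources read here.

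A dividing cell licenses its replication origins with the MCM helicase, fires them in S phase, when PCNA clamps the polymerase to DNA and ribonucleotide reductase and thymidine kinase supply nucleotides, and then builds a spindle and separates its chromosomes under cyclin-dependent and Aurora kinases. Many of these genes are transcribed only during their phase of the cycle, through E2F sites in S phase genes and through CHR and CCAAT elements in G2 and M genes. Most cells of an adult lung are at rest, and transcripts of this kind are known to rise when epithelium, mesenchyme or macrophages divide after injury.

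Values are log2 intensities, so a difference of 1 is a doubling. Array medians lay between 7.76 and 7.83. The lower quartile of each array, between 6.24 and 6.35, served as a mark for dim probe sets, and 6 of the 57 genes had means under it (Gmnn, Cenpe, Spc25, Kif14, Hmmr and Ncapg). Surfactant protein gene Sftpc, a defining lung marker, lay between 14.21 and 14.46 in every mouse. Tgfb1 was not analysed here, so the transgene's own level was not checked. These are whole lobes, in which more dividing cells and more RNA per cell cannot be told apart.

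Most of the 57 genes were higher in TG than in WT lungs, and the median change of the mitosis genes was above that of the replication genes. Over all 6 strains, 43 of the 57 rose and 1, Gmnn, fell (limma, adjusted p under 0.05), against a background of 13.2% of all 13499 genes rising and 13.5% falling. The median change of the 57 was 0.34 on the log2 scale, against -0.0006 over all genes. Among the 8 replication genes 4 rose, with a median change of 0.17, and among the other 49 genes 39 rose, with a median of 0.37. A/J TG mice stood above the rest, as the plot of set means by mouse shows. With A/J left out, 34 genes rose and 1 fell (backgrounds 11.3% rising and 11.4% falling), 2 of the 8 replication genes and 32 of the other 49, and without C57BL/6J 28 rose. Without the lone A/J WT mouse the count was also 28. That fit leaves A/J no part in the estimated change, while its TG mice still count in the error. Of the 44 calls over all strains, 28 were kept whichever mouse was left out, and 15 ended without the A/J WT mouse.

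**Figure D1:**
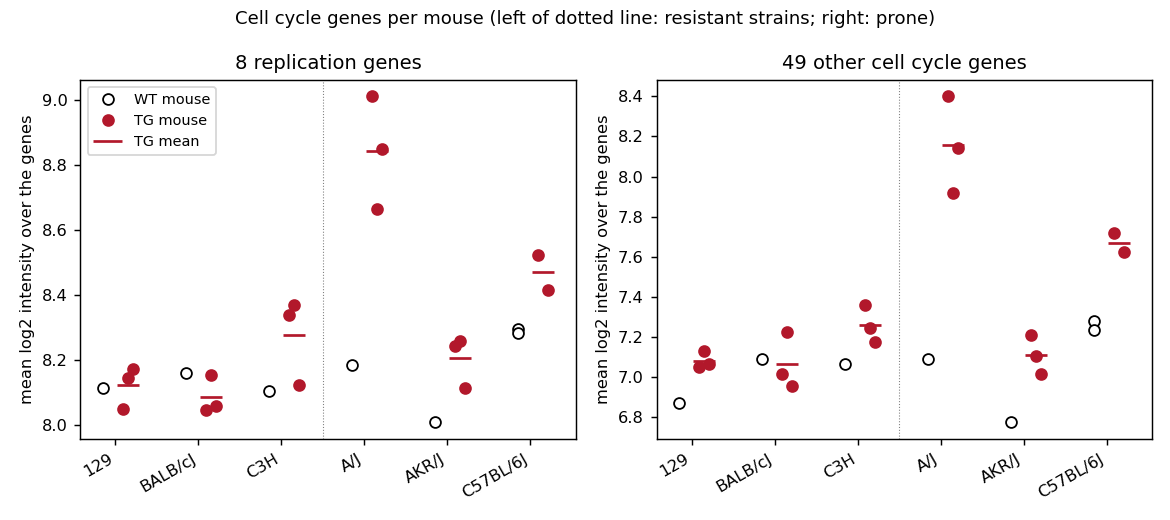
Mean log2 intensity over the 8 replication genes (left) and the 49 other cell cycle genes (right) in each mouse, by strain, with open circles for WT mice, filled circles for TG mice and a bar at the TG mean. The 3 A/J TG mice lie between 8.66 and 9.01 on the left and between 7.92 and 8.40 on the right, above every other mouse in both panels.

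Ccna2 (cyclin A, which partners CDK2 and CDK1 from S phase to mitosis) had the largest change. It lay at 9.58, 10.29 and 10.52 in A/J TG mice, at 9.05 and 9.43 in C57BL/6J TG mice, and between 7.81 and 9.03, median 8.39, in the 9 TG mice of resistant strains. AKR/J TG mice lay at 7.97, 8.20 and 8.45, and the 7 WT mice between 7.08 and 8.48, median 8.09. No A/J or C57BL/6J TG mouse overlapped the WT range, whereas most other TG mice did. That range pools strains whose WT levels differed. Within strains, TG and WT group means were 9.24 and 8.47 in C57BL/6J, 8.21 and 7.08 in AKR/J and 8.43 and 7.51 in 129. In C3H they were 8.76 and 8.13, and in BALB/cJ 7.98 and 8.09. The TG effect was 0.90 ± 0.17 (log2 ± SE, 1.86-fold) over all strains (limma adjusted p = 0.00043) and 2.07 ± 0.29 (4.21-fold) in A/J (adjusted p = 0.00021).

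Cdk1, the kinase that drives entry into mitosis, lay at 9.19, 9.60 and 9.84 in A/J TG mice and at 8.57 and 8.98 in C57BL/6J TG mice. Its levels ran from 7.47 to 8.40 in resistant TG mice, median 7.82, and from 6.91 to 8.02 in WT mice, median 7.59. Every TG mouse of the first 2 strains was again above every WT mouse. Strain baselines differed here too, with TG and WT group means of 8.77 and 7.88 in C57BL/6J and 7.73 and 6.91 in AKR/J. They were 7.75 and 7.21 in 129, 8.13 and 7.61 in C3H and 7.71 and 7.59 in BALB/cJ. Cdk1 rose by 0.82 ± 0.15 over all strains (1.77-fold, limma adjusted p = 0.000285). Top2a, the topoisomerase that untangles sister chromatids, followed the same order, at 9.01, 9.23 and 9.51 in A/J TG mice, 8.58 and 8.66 in C57BL/6J TG mice, 7.04 to 7.94 in resistant TG mice and 6.43 to 7.92 in WT mice. It rose by 0.77 ± 0.14 (adjusted p = 0.000263). Ect2, which activates RhoA at the cleavage furrow, rose by 0.78 ± 0.11 (adjusted p = 2.13e-05), Nusap1, a microtubule-bundling spindle protein, by 0.66 ± 0.11 (adjusted p = 0.000151) and Kif11, the motor that pushes spindle poles apart, by 0.62 ± 0.15 (adjusted p = 0.00342).

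The promoters of 5 of the genes that rose most are shown (those of Ccna2, Kif20a and Cep55 are not) because many of the 57 moved together, and because replication and mitosis genes are known for different promoter elements. RefSeq's table (build GRCm38.p6) held 48 start sites of 45 of the 57 genes, and the 250 bases before each start were searched on both strands for 3 motifs. These were the CHR (TTTGAA or TTCGAA), the CCAAT box and an E2F site (TTTNNCGC). No motif overlaps another in the sequences printed. Each is given 5′ to 3′ on the strand of the gene, ending at the base before the start, with motif matches in capitals. The stretches are Cdk1 chr10:69352913-69353162 (minus strand), Ect2 chr3:27153879-27154128 (minus), Top2a chr11:99024190-99024439 (minus), Kif11 chr19:37376132-37376381 (plus), Nusap1 chr2:119618048-119618297 (plus) and, for the replication gene of largest change, Rrm2 chr12:24708004-24708253 (plus).
Cdk1: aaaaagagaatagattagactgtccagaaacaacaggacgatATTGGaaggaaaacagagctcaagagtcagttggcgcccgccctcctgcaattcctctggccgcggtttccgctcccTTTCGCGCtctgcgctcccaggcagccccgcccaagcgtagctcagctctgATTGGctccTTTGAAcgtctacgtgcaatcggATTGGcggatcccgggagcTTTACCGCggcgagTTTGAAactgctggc
Ect2: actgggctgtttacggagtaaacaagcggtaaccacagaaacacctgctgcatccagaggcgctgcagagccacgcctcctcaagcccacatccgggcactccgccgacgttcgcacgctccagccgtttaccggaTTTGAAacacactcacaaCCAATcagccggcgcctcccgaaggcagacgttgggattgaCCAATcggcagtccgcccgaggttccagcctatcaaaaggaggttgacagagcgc
Top2a: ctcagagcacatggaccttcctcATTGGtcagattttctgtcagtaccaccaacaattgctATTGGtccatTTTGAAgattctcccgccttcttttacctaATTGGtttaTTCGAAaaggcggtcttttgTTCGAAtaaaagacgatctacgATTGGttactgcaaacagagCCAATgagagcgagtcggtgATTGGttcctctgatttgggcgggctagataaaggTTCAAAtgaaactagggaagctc
Kif11: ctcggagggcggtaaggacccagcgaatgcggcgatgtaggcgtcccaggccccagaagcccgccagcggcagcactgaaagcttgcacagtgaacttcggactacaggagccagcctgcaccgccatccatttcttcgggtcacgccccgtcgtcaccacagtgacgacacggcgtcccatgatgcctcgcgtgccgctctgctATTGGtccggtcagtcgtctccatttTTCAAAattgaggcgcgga
Nusap1: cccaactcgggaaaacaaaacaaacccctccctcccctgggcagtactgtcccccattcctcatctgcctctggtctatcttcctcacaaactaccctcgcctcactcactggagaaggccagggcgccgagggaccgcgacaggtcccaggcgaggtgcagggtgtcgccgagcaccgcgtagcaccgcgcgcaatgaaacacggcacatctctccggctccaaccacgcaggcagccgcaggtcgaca
Rrm2: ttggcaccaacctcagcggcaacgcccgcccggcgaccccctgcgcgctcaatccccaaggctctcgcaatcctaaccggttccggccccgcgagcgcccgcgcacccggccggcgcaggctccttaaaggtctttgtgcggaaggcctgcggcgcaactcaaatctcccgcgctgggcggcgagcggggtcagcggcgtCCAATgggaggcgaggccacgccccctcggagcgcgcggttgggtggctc

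Counted to the motif's first base, Cdk1 held CHR matches 71 and 15 bases before its start, CCAAT matches at 208, 80 and 48, and E2F matches at 131 and 29. Top2a held 4 CHR and 6 CCAAT matches among its 10. Ect2 had 1 CHR and 2 CCAAT matches before the start shown, and 1 and 3 before its other start in the table (chr3:27153855-27154104), Kif11 1 of each, Rrm2 a single CCAAT match 50 bases before its start, and Nusap1 none of the 3 motifs. Over the 48 windows, 33.3% held a CHR against 17.1% of all 32851 windows in the table, 66.7% a CCAAT box against 33.8%, 20.8% an E2F site against 4.3%, and 27.1% both a CHR and a CCAAT box against 6.0%. A CHR was in 36.6% of the 41 windows of the other cell cycle genes and in 14.3% of the 7 windows of replication genes, and an E2F site in 19.5% and 28.6%. These are matches of letters in a window, not measured sites.

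Within the replication genes, the nucleotide enzymes changed most and the MCM helicase and clamp least. Rrm2, the ribonucleotide reductase subunit made in S phase, lay at 8.64, 8.93 and 9.21 in A/J TG mice and at 8.34 and 8.53 in C57BL/6J TG mice. It lay at 7.62, 7.81 and 7.84 in AKR/J TG mice, between 7.59 and 8.07 in resistant TG mice and between 7.34 and 8.07 in WT mice. All 5 TG mice of A/J and C57BL/6J were above every WT mouse, but WT levels differed between strains. Within strains, TG and WT group means were 8.435 and 7.998 in C57BL/6J, 7.977 and 7.343 in C3H and 7.758 and 7.455 in AKR/J. In 129 they were 7.694 and 7.606, and in BALB/cJ 7.669 and 7.659. Rrm2 rose by 0.45 ± 0.10 over all strains (1.36-fold, limma adjusted p = 0.00226), by 0.65 ± 0.09 in prone strains (adjusted p = 6.58e-05) and by 1.20 ± 0.17 in A/J (2.30-fold, adjusted p = 0.000186). The call over all strains held without A/J (0.30 ± 0.07, adjusted p = 0.00427).

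Tk1, thymidine kinase, lay at 7.88, 8.17 and 8.39 in A/J TG mice, at 7.75 and 7.79 in C57BL/6J TG mice and between 7.09 and 7.60 in WT mice. It rose by 0.28 ± 0.10 over all strains (adjusted p = 0.0348), a call that ended without A/J (0.15 ± 0.07, adjusted p = 0.152). Cdc45, a part of the active replicative helicase, rose by 0.19 ± 0.06 (adjusted p = 0.0133), and its levels in A/J TG mice (7.80, 7.84 and 8.04) were above all other mice. Cdc6, which loads the MCM ring onto origins, rose by 0.21 ± 0.07 (adjusted p = 0.0343) but was at 7.12, 7.12 and 7.14 in A/J TG mice and at 6.89, 7.01 and 7.25 in AKR/J TG mice, so that these groups overlapped. The calls of Tk1, Cdc6 and Cdc45 ended without the lone A/J WT mouse, and those of Tk1 and Cdc6 also without any 1 of 4 other mice of C57BL/6J, C3H or, for Cdc6, BALB/cJ.

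The MCM helicase subunits and PCNA gave changes of 0.15 ± 0.09 (Mcm3), 0.04 ± 0.05 (Mcm4), 0.13 ± 0.13 (Mcm6) and 0.07 ± 0.05 (Pcna), with limma adjusted p from 0.227 to 0.613. Mcm4 turned to -0.01 with A/J left out. In A/J alone Mcm3 rose by 0.80 ± 0.16 (adjusted p = 0.00283) and Pcna by 0.39 ± 0.10 (adjusted p = 0.00941). Pcna, the highest of the replication genes in intensity, lay at 11.48, 11.53 and 11.65 in A/J TG mice, between 10.84 and 11.37 in the other 14 TG mice and between 10.92 and 11.25 in WT mice. A second Pcna probe set gave 0.10 over all strains and 0.42 in A/J. Mcm6 differed among the strains of TG mice (F test, limma adjusted p = 0.000609). It lay at 9.07, 9.42 and 9.50 in A/J TG mice and 9.13 in both C57BL/6J TG mice, and at 8.86, 8.96 and 8.97 in the WT mice of those 2 strains, while 129 mice were at 7.76 (WT) and 7.31, 8.05 and 8.14 (TG).

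**Figure D2:**
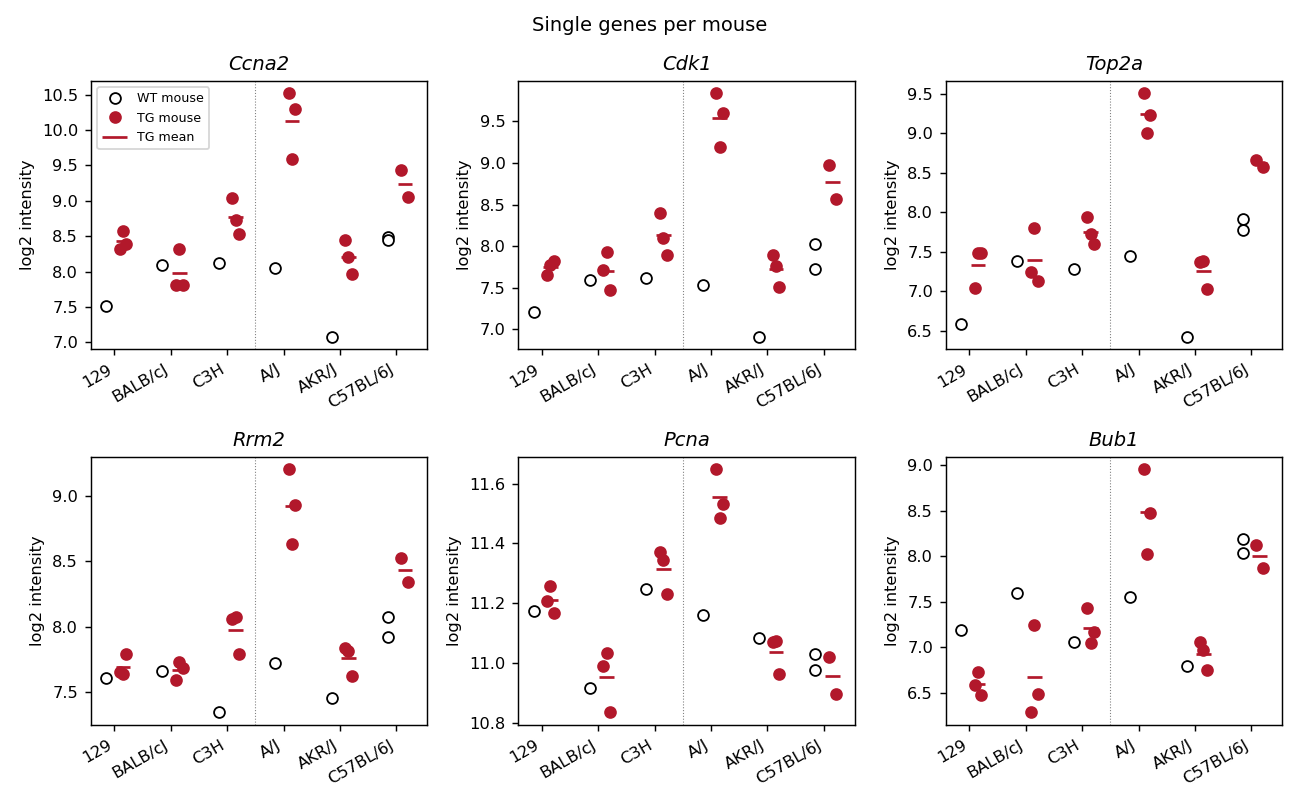
Log2 intensity of Ccna2, Cdk1, Top2a, Rrm2, Pcna and Bub1 in each mouse by strain, with open circles for WT mice, filled circles for TG mice and a bar at the TG mean (each panel has its own axis, which does not start at 0). A/J TG mice are the highest in the first 5 panels, and the Bub1 panel shows TG mice under the WT mouse in 129 and BALB/cJ.

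Genes of origin control, S phase chromatin and repair rose in 5 of 8 cases, and 1 fell. Dtl, the adaptor of a ubiquitin ligase that acts on proteins bound to PCNA, rose by 0.53 ± 0.14, Esco2, which acetylates cohesin in S phase, by 0.50 ± 0.13 and Uhrf1, which carries DNA methylation through replication, by 0.41 ± 0.09 (limma adjusted p from 0.0021 to 0.00719). Dtl lay at 7.75, 8.30 and 8.56 in A/J TG mice and at 7.72 and 7.81 in C57BL/6J TG mice, so that these strains overlapped, and between 6.52 and 7.15 in WT mice. All 5 of these TG mice were above every WT mouse. Hells, a chromatin remodelling helicase, rose by 0.33 ± 0.11 and Brca1, of homologous repair, by 0.20. E2f1, the transcription factor of S phase genes, gave 0.10 ± 0.08 (adjusted p = 0.404) over all strains and rose in prone strains by 0.31 ± 0.09 (adjusted p = 0.0154). The repair nuclease Exo1 gave 0.19 (adjusted p = 0.0729). Geminin (Gmnn), the inhibitor of origin licensing, went the other way by a small step, with 5.78 to 6.02 in TG mice against 5.91 to 6.13 in WT mice. It fell by 0.11 ± 0.03 (adjusted p = 0.0186) at a dim level, a call that ended without the WT mouse of 129 or of BALB/cJ. The call of Hells ended without any 1 of 4 mice.

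Of the 11 genes of the mitotic cyclin, kinases, checkpoint and proteolysis, 10 rose over all strains. Beside Ccna2 and Cdk1, Aurora B (Aurkb), which corrects faulty kinetochore attachments, rose by 0.52 ± 0.12 (limma adjusted p = 0.00247), with 9.46, 9.80 and 9.93 in A/J TG mice, 9.01 and 9.28 in C57BL/6J TG mice and 7.88 to 8.62 in WT mice. Ube2c (0.49) and Cdc20 (0.43), the ubiquitin-conjugating enzyme and the activator of the anaphase-promoting complex, rose with it. So did the kinase genes Pbk (0.38), Aurka (0.29), Melk (0.26) and Nek2 (0.15) and the checkpoint gene Bub1b (0.37 ± 0.09, adjusted p = 0.00362). Bub1, its partner in the spindle checkpoint, was the exception. Bub1 was at 6.48, 6.59 and 6.73 in 129 TG mice against 7.19 in the WT mouse, and at 6.28, 6.48 and 7.25 in BALB/cJ TG mice against 7.60. It was at 8.03, 8.48 and 8.96 in A/J TG mice against 7.55. The TG minus WT difference was -0.59 ± 0.31 in 129, -0.92 ± 0.31 in BALB/cJ and 0.94 ± 0.31 in A/J, none of them past the threshold (adjusted p from 0.0509 to 0.354), and the test of strain dependence gave an adjusted p of 0.171. Over all strains Bub1 gave -0.07 ± 0.17 (adjusted p = 0.811), which turned to 0.09 without BALB/cJ and 0.03 without 129.

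Centromere, kinetochore and chromosomal passenger genes rose in 7 of 9 cases, and in prone strains in 9 of 9. Knstrn, a spindle and kinetochore protein, rose by 0.49 ± 0.13, Nuf2, of the NDC80 complex that grips microtubules, by 0.47 ± 0.11 and Cenpf by 0.46 ± 0.11 (limma adjusted p from 0.00239 to 0.00674). Knstrn lay at 8.73, 8.94 and 9.23 in A/J TG mice, 8.22 and 8.37 in C57BL/6J TG mice and 7.10 to 7.72 in WT mice. Spc25 (0.46), Cenpe (0.44), Birc5 (0.26) and Ndc80 (0.17) also rose. Cenpa, the centromeric histone, gave 0.13 (adjusted p = 0.243) and Cdca8, of the passenger complex, 0.20 (adjusted p = 0.0791).

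Spindle motors and microtubule proteins rose in 11 of 13 cases. Kif20a, a motor of the late spindle, rose by 0.58 ± 0.14 (limma adjusted p = 0.00265) and lay at 8.10, 8.56 and 8.86 in A/J TG mice and 6.53 to 7.02 in WT mice. Hmmr, which binds hyaluronan and the spindle, rose by 0.44 ± 0.12 (adjusted p = 0.0106), with 6.63, 7.01 and 7.01 in A/J TG mice against 5.28 to 5.65 in WT mice. Ckap2l (0.53), Tpx2 (0.52), Kif14 (0.37), Kif2c (0.34), Aspm (0.33), Dlgap5 (0.29) and Tacc3 (0.24) rose as well. Kif18a (-0.03, adjusted p = 0.842) and Stmn1 (-0.03, adjusted p = 0.747), which destabilises microtubules in many cell types, did not pass. A dimmer second probe set of Kif14, at a mean of 4.61, gave 0.01, and one of Top2a, at 4.93, gave -0.11, so these genes rest on their brighter probe set.

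Among 5 chromosome structure genes, Top2a, the condensin subunit Ncapg (0.37 ± 0.10, limma adjusted p = 0.00593) and Smc2 (0.25, adjusted p = 0.0472) rose, the last a call that ended without any 1 of 14 mice. Ncapg2 gave 0.30 ± 0.12 (adjusted p = 0.07) and the condensin core Smc4 -0.07 ± 0.07 (adjusted p = 0.484). All 3 cytokinesis genes rose, Ect2, the abscission gene Cep55 (0.56 ± 0.10, adjusted p = 0.000212) and the centralspindlin gene Racgap1 (0.43 ± 0.13, adjusted p = 0.0176). Ect2 lay at 9.84, 10.15 and 10.18 in A/J TG mice, 9.12 and 9.15 in C57BL/6J TG mice, 8.04 to 9.18 in resistant TG mice and 7.43 to 8.61 in WT mice. Racgap1 was no longer called without A/J (0.23 ± 0.09, adjusted p = 0.0727), nor without AKR/J (0.41) or C57BL/6J (0.42).

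**Figure D3:**
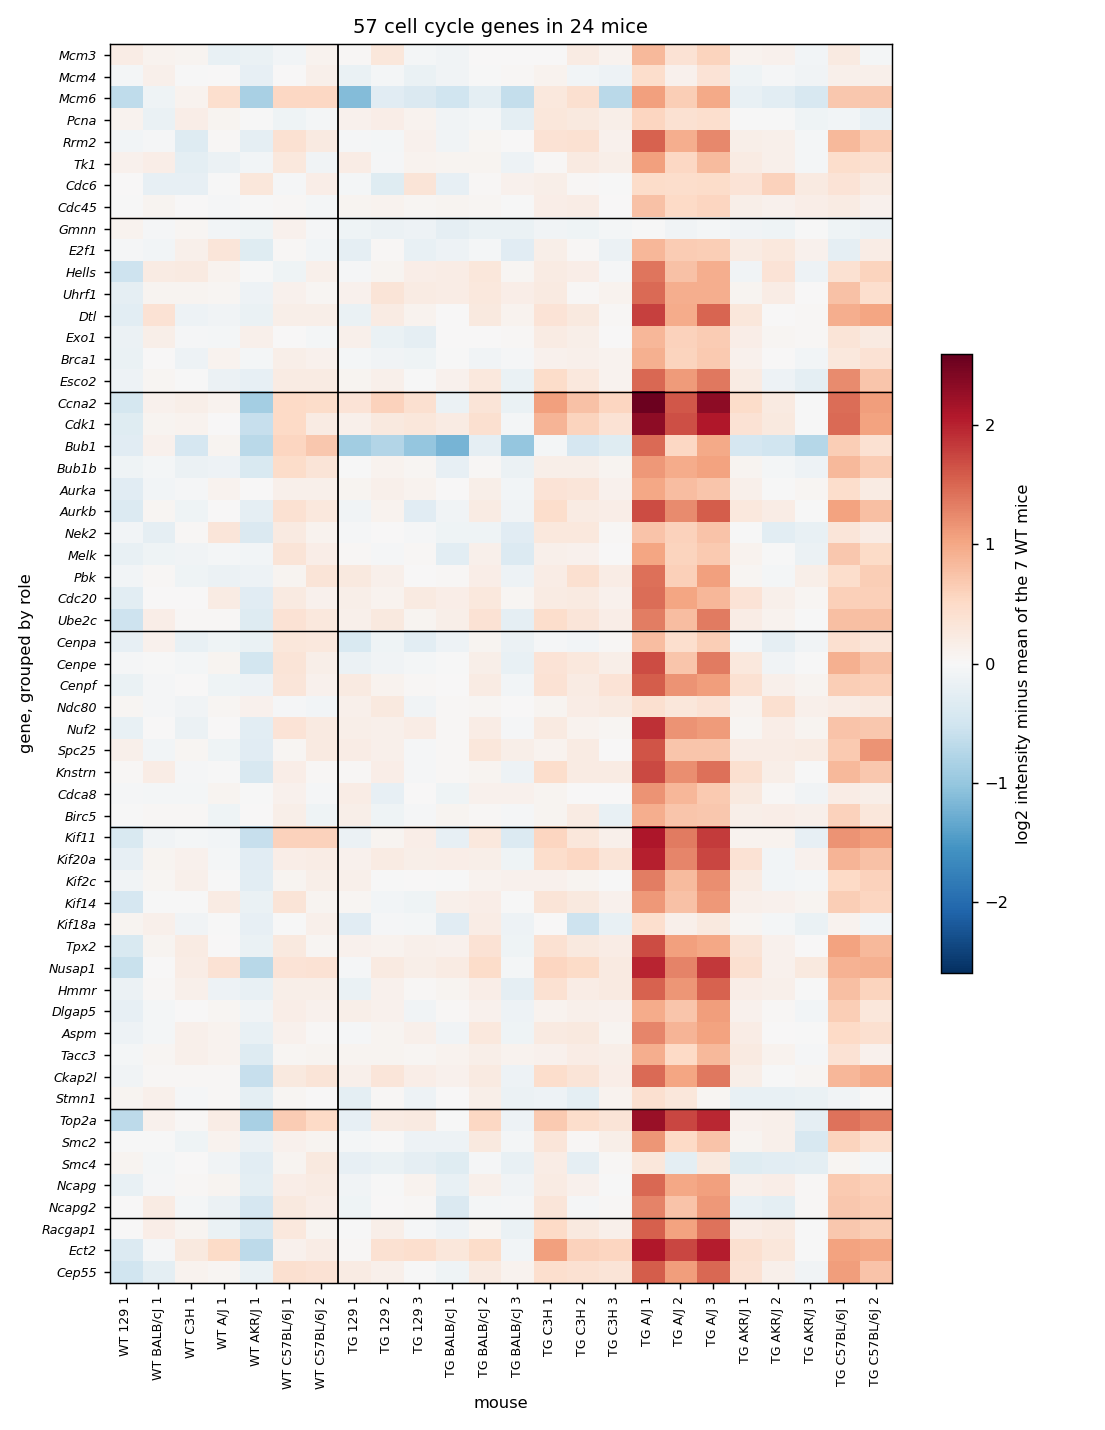
Log2 intensity of the 57 genes (rows, by role, replication genes first) in 24 mice (columns, WT mice left of the vertical line), minus the mean of the 7 WT mice. The 3 A/J TG columns are red in nearly every row, the 2 C57BL/6J TG columns less so. Bub1 is below the mean of all WT mice in every TG mouse of 129, AKR/J, BALB/cJ and C3H. Against the WT mouse of its own strain, its TG mean was higher in AKR/J (6.93 against 6.80) and C3H (7.21 against 7.05).

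By strain, most genes were called in A/J, fewer in C57BL/6J and few or none elsewhere. C57BL/6J had more WT mice than any other strain, so these tests differed in power. On simulated data, the share of changes recovered was 64.5% in C57BL/6J and between 43% (AKR/J) and 49.5% (129) in the other strains. The count in C57BL/6J is therefore not on equal terms with those of the other strains. In A/J 47 of 57 genes rose, 5 of 8 replication genes and 42 of the other 49 (limma adjusted p under 0.05, background 6.8% rising), with a median difference of 0.98. The mean over the other 49 genes was 8.16 ± 0.24 (SD, n = 3) in A/J TG mice and 7.09 in the WT mouse, a difference of 1.06, and over the replication genes 8.84 ± 0.17 and 8.19, a difference of 0.66. The 10 genes not called in A/J were Mcm4, Mcm6, Cdc6, Gmnn, E2f1, Bub1, Ndc80, Kif18a, Stmn1 and Smc4.

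In C57BL/6J 22 genes rose (limma, background 6.96% rising), with a median of 0.42, and 0 of 8 replication genes were called there, with 2 at an unadjusted p under 0.05. All 22 were also among the 47 of A/J, but 47 of the 57 is most of the set, so any such list would overlap largely. The mice of these strains are separate, but both tests take their error from the same fit. The overlap among all genes is not given here. The C57BL/6J count rested on few mice, and leaving out 1 of the 4 gave 9 or 2 without a WT mouse and 3 or 13 without a TG mouse. In AKR/J 3 rose (Nusap1 by 0.98, Ckap2l by 0.66 and Ect2 by 0.91, background 1.54% rising), and the count ran from 0 to 3 with a TG mouse left out. The median difference was 0.29 there, 0.13 in 129, 0.19 in C3H and -0.01 in BALB/cJ. In 129, C3H and BALB/cJ limma called 0 genes, against backgrounds of 2.95%, 0.822% and 2.26% of all genes called, and at an unadjusted p under 0.05 there were 13 higher and 1 lower in 129, 9 higher in C3H and 1 lower, Bub1, in BALB/cJ.

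**Figure D4:**
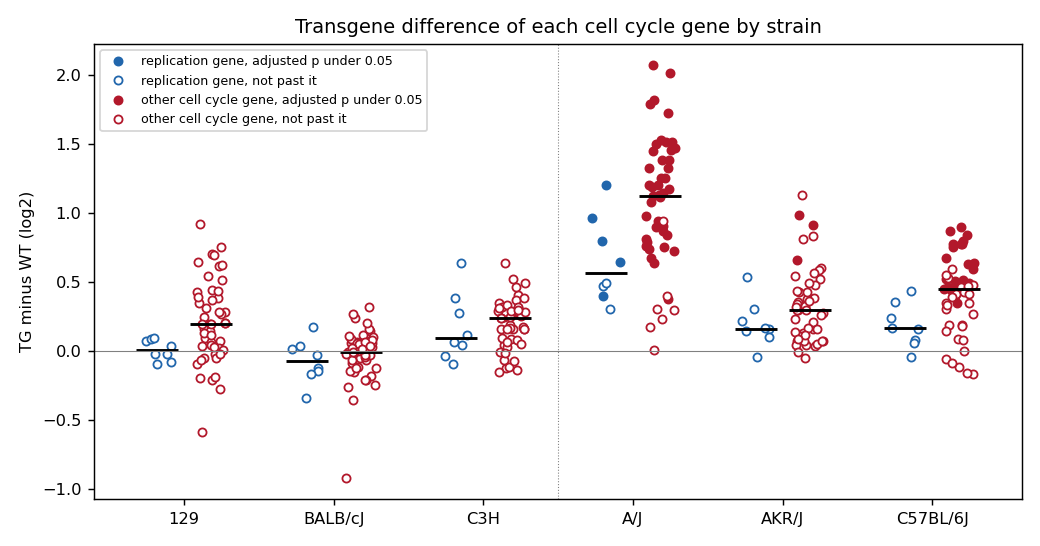
TG minus WT difference (log2) of each of the 57 genes in each strain, with replication genes in blue, other cell cycle genes in red, filled symbols for limma adjusted p under 0.05 and bars at the median of each set. The dotted line separates resistant strains (left) from prone strains (right), and filled symbols are seen in A/J, C57BL/6J and AKR/J alone.

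The count of genes with every TG mouse above every WT mouse of its strain uses no model. It was 55 of 57 in A/J (35.1% of all genes do so), 47 in C57BL/6J (25.8%), 42 in AKR/J (31.7%), 37 in C3H (28.2%), 33 in 129 (25.9%) and 8 in BALB/cJ (33.3%). BALB/cJ was thus the one strain whose count was under its background. Its TG mean was above the WT value in 26 of the 57 genes (the share of all genes is not given here).

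Levels in TG mice had a shared order. A/J had the highest TG mean for all 57 genes and C57BL/6J the second highest for 50. The lowest TG mean belonged to BALB/cJ for 28, 129 for 18, AKR/J for 10 and C3H for 1. Orders of strain means, here and for WT mice, were not counted over all genes. As the 57 genes vary together, such counts are not separate results. All 3 A/J TG mice were above the other 14 TG mice for 39 genes, against 2.74% of all genes, among them the replication genes Mcm3, Pcna, Rrm2, Tk1 and Cdc45 and 34 of the other 49. In WT mice the order was another one, with C57BL/6J highest for 30 genes and AKR/J lowest for 32, from 1 mouse each in 5 strains. Strain differences among TG mice passed the F test for 53 of 57 genes, including 8 of 8 replication genes (background 31.4%), and the 4 that did not were Gmnn, Ndc80, Kif18a and Smc4.

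Between the prone and resistant sets, TG mice differed and WT mice gave no call. These tests take their error from the spread of mice within groups, so they speak of these 6 strains. They do not measure the spread between the strains of a set. Among TG mice 51 genes were higher in prone strains (background 6.44% higher), 6 of 8 replication genes and 45 of the other 49, by a median of 0.47. Bub1 had the largest difference, at 0.98 ± 0.13 (limma adjusted p = 0.000151), followed by Top2a (0.88 ± 0.10) and Kif11 (0.87 ± 0.10). Among WT mice limma called 0 of 57 (5 of 57 at an unadjusted p under 0.05; background 0.741% called), with a median of 0.03. Without A/J 30 genes were higher and 1, Pcna, was lower (backgrounds 3.93% higher and 3.51% lower). AKR/J, also in the prone set, had TG means over the 49 genes of 7.11 ± 0.10 (SD, n = 3), against 7.26 ± 0.09 in C3H, 7.08 ± 0.04 in 129 and 7.07 ± 0.14 in BALB/cJ, and its mice overlapped with those of each of these 3 strains.

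The effect of the transgene was called in more genes in prone than in resistant strains, and the difference itself passed for few. Here too the error is that of mice within groups, and the tests speak of these 6 strains. In prone strains 48 genes rose (background 12% rising), with a median of 0.57, 4 of 8 replication genes and 44 of the other 49. In resistant strains 3 rose, Aurka (0.26 ± 0.07), Cep55 (0.41 ± 0.11) and Ect2 (0.47 ± 0.13), and Gmnn fell by 0.17 ± 0.04 (limma adjusted p from 0.018 to 0.0293, backgrounds 4.92% rising and 5.78% falling), with a median of 0.11. In these strains the share of the 57 called as rising was thus near the background, and the share called as falling was under it. At an unadjusted p under 0.05 (limma), 14 of the 57 were higher and 2 lower (the share of all genes is not given here). The count called as rising there ran from 2 to 8 with a mouse left out. The count of 7 given next ran from 2 to 17 (the highest of both without A/J TG mouse 2). The lone WT mice that these contrasts use were not among those left out. The difference of the 2 effects was above 0 for all 57 genes, which vary together, with a median of 0.42 (the share of all genes above 0 is not given here). It passed for 7, Knstrn (0.87 ± 0.14), Racgap1 (0.85 ± 0.14), Ncapg2 (0.73 ± 0.14), Hmmr (0.70 ± 0.13), Ckap2l (0.65 ± 0.12), Kif2c (0.60 ± 0.12) and Bub1b (0.50 ± 0.09), with adjusted p from 0.0179 to 0.0394 (background 0.252% higher). Limma called 0 replication genes in that test, with 5 of 8 at an unadjusted p under 0.05. Without A/J 31 genes rose in prone strains (background 8.19% rising), and the difference passed limma for 0 (20 of 57 at an unadjusted p under 0.05; background 0.0593% called), with a median of 0.21. A test for any dependence of the effect on strain passed for 9 of 57 (background 1.34%), which were Bub1b, Racgap1, Hmmr, Knstrn, Kif2c, Ncapg2, Kif20a, Aurkb and Cenpf. The count ran from 0 without the lone A/J WT mouse, which takes A/J out of this test, to 25 without A/J TG mouse 2. Without A/J limma called 0 in that test (15 of 57 at an unadjusted p under 0.05; background 0.719%).

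The 57 genes also varied together. Over the 21 mice other than A/J TG mice, the median pairwise Pearson correlation was 0.623, as a description of arrays that share strain and genotype. Gmnn (r = -0.10) and Pcna (r = -0.06) did not follow the mean of the 57, in which each gene is itself counted. Stmn1, E2f1, Cdc6, Ndc80, Kif18a and Mcm3 followed it weakly (r from 0.11 to 0.27). The genes outside the lists whose pattern over 24 mice was most like the mean of the 57 were Parpbp (r = 0.966), Cip2a (0.962), Cdkn3 (0.959), Prr11 (0.957), Gas2l3 (0.952), Stil (0.949), H2bc14 (0.949), Gen1 (0.948), Pclaf (0.946) and Ccnf (0.944). Over the 21 mice without A/J TG these correlations were between 0.797 and 0.924.

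Genes of 3 other cell cycle lists rose in part, against backgrounds of 13.2% of all genes rising over all strains and 12% in prone strains. Of 22 other replication factors 6 rose over all strains and 12 in prone strains, among them the clamp loader subunit Rfc4 (0.36 ± 0.09), the chromatin assembly factor Chaf1b (0.29 ± 0.09), the polymerase subunit Pole2 (0.25 ± 0.07) and Mcm10 (0.21 ± 0.07). Of 40 other mitosis genes 20 rose over all strains and 28 in prone strains, with the CDK-binding Cks1b (0.64 ± 0.14) and Cks2 (0.52 ± 0.08), the kinetochore scaffold Knl1 (0.58 ± 0.14) and the Greatwall kinase Mastl (0.51 ± 0.14). DNA damage and repair genes rose in 2 of 7 cases, Chek2 (0.30 ± 0.06) and Rad54l (0.20 ± 0.06). All values in this paragraph passed limma at adjusted p under 0.05 unless said otherwise, and 0 genes of these 3 lists fell over all strains.

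Some G1 regulators and inhibitors changed in both sets of strains. Mycn, a growth-promoting transcription factor, rose by 1.06 ± 0.10 over all strains (2.08-fold, limma adjusted p = 8.19e-08), by 0.98 ± 0.12 in prone and by 1.12 ± 0.12 in resistant strains. It lay between 7.68 and 8.70 in TG mice and between 6.78 and 7.53 in WT mice, with no overlap. In the list of G1 cyclins, CDKs and E2F factors 6 of 11 rose over all strains (background 13.2%), including E2f3 (0.51 ± 0.07), Ccne2 (0.43 ± 0.14) and E2f7 (0.30 ± 0.05). Of 15 cell cycle inhibitors and p53 targets 7 rose and 2 fell (backgrounds 13.2% and 13.5%), with Gadd45g (0.46 ± 0.06), Phlda3 (0.35 ± 0.06) and Cdkn2b (0.31 ± 0.08) higher and Sesn1 lower (-0.44 ± 0.05). Of these genes, E2f3 (0.33), Gadd45g (0.31), Phlda3 (0.27) and Sesn1 (-0.35) were also called in resistant strains, where Ccne2 gave 0.14 (limma adjusted p = 0.694), E2f7 0.19 (0.0827) and Cdkn2b 0.21 (0.184). The mean level of the inhibitors and p53 targets was 10.011 to 10.035 in A/J TG mice, 9.959 to 10.055 in the other TG mice and 9.853 to 10.004 in WT mice, so A/J did not stand apart here.

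**Figure D5:**
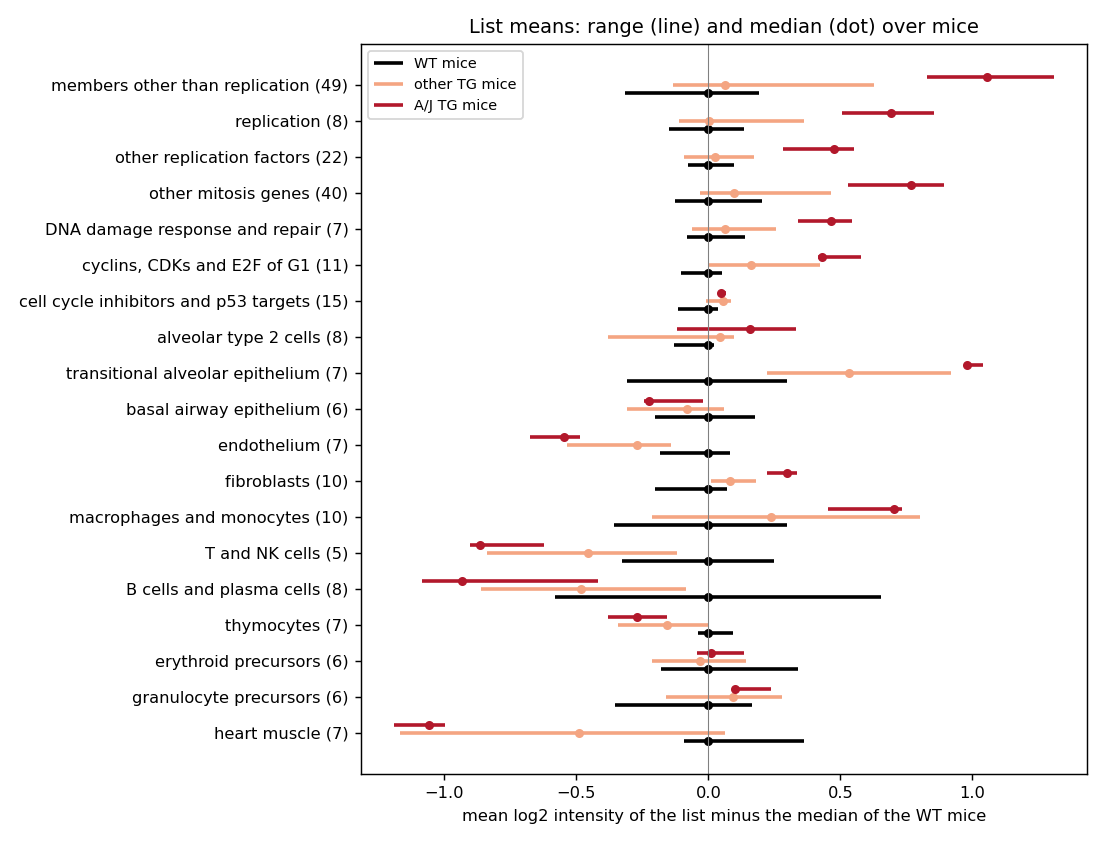
Mean log2 intensity of each gene list (number of genes in brackets) minus the median of the 7 WT mice, with lines from the lowest to the highest mouse and dots at the median, for WT mice, TG mice outside A/J and A/J TG mice. A/J TG mice lie above both other ranges in the lists of the 57 genes, other replication factors, other mitosis genes and DNA damage genes, and within the range of the other TG mice for inhibitors and p53 targets.

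Marker lists of some cell types were also higher in A/J or C57BL/6J TG mice. Counts here are over all strains, against 13.2% of all genes rising and 13.5% falling. Macrophage and monocyte markers (5 of 10 rose, 0 fell) had mean levels of 9.74 to 10.02 in A/J TG mice, 10.06 and 10.09 in C57BL/6J TG mice, 9.07 to 9.77 in the TG mice of the other 4 strains and 8.93 to 9.58 in WT mice, so C57BL/6J was highest and A/J overlapped with the other 4 strains. Transitional alveolar epithelium markers such as Krt8 (4 of 7 rose, 0 fell) lay at 11.24 to 11.30 in A/J TG mice, 10.48 to 11.18 in other TG mice and 9.95 to 10.56 in WT mice. Fibroblast markers (4 of 10 rose, 2 fell) lay at 10.78 to 10.90, 10.57 to 10.74 and 10.36 to 10.63 in the same order. Alveolar type 2 markers (1 of 8 rose, a share near the background, and 0 fell) overlapped in all 3 sets, at 12.55 to 13.00, 12.29 to 12.77 and 12.54 to 12.69. The part of these lists in the rise of the cell cycle genes was not tested.

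Markers of precursor cells that divide in other tissues were also read. Thymocyte markers fell in 3 of 7 cases and rose in 0, with means of 6.664 to 6.887 in A/J TG mice and 7.003 to 7.139 in WT mice, and 2 of the 7 were under each array's lower quartile in every mouse. Erythroid precursor markers were called in 0 of 6 cases over all strains (7.31 to 7.49 in A/J TG mice, 7.17 to 7.69 in WT mice). Granulocyte precursor markers rose in 1 of 6, a share near the background, with list means of 7.64 to 7.79 and 7.20 to 7.72. That gene was Chil1 (0.63, limma adjusted p = 0.000634), at a mean of 13.56. The rest of that list had means no higher than 6.96 (Elane) and were not called. Both lists held 2 dim genes. B and plasma cell (6 of 8), T and NK cell (5 of 5), endothelial (6 of 7) and heart muscle (6 of 7) markers fell over all strains, with 0 rising in each. Basal airway epithelium markers fell in 2 of 6 cases. Their part in the results was not tested.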

How the data were processed

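Whole-transcript arrays measured RNA of the right lung lobe in 24 mice, 1 array to a mouse by the titles. Per the labels' protocols, RNA came from fresh tissue (phenol reagent, then columns) and was biotin-labelled with the Ambion WT Expression kit. The authors deposited 1 value per probe set, taken here as a log2 intensity because values run from 3.41 to 14.75. How these were summarised and normalised, and the log base, software and build, are not stated in the labels or file, and nothing was rescaled. The table used here is incomplete. It covers between 76.1% and 91.7% of RefSeq genes (GRCm38.p6) on each of chromosomes 1 to 4 and 10 to 19, but 26.3% on chromosome 5 and no more than 2.0% on 6, 7, 8, 9 or X. Mki67, Ccnb1 and Plk1 were not analysed here. Of 25285 probe sets, 14539 carried a single gene symbol, 14480 of them known to RefSeq, and 1 with missing values was dropped.

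Testing was by limma 3.58.1 under R 4.3.3 (lmFit, eBayes), two-sided, with Benjamini-Hochberg adjustment over 13499 genes and a threshold of 0.05. The comparison over all strains had strain and genotype as terms (17 residual degrees of freedom). The rest were contrasts among 12 group means (12 residual degrees of freedom), in which a group of 1 WT mouse borrows the spread of the others. Comparisons share mice, and the number of arrays limits the precision. Across genes, the 17 pairs of mice within a group had correlations of 0.9916 to 0.9972. The fits were tested on simulated data.

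The members and lists were chosen with earlier results of these data known. By rule, values were given for every replication gene, for the 3 genes of largest change in each other role, for up to 4 genes passing a strain test, for up to 4 called genes of each pathway list and for the 10 genes outside the lists most like the mean of the 57. Promoters were to be those of up to 6 members of largest change in RefSeq's table, of which Cep55's is not printed. The promoter of Rrm2, the values of Bub1 and those of further genes named were chosen after they were seen. Alternatives were quantile normalisation, median centring, array weights, another variance prior, a filter on dim genes, the mean of probe sets and a replicate block. Each mouse or strain was also left out, where the contrast could still be fitted. Python 3.11.15 with pandas 2.3.3 and matplotlib 3.10.9 made the tables and plots.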

Additional observations from a re-analysis of the deposited data

Results flagged for a closer look

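In 16 results, from 10 genes, the effect of the transgene differed between strains by a test of the difference itself (limma, adjusted over 13499 genes), which is why they are listed here. Errors are SE. The prone minus resistant difference of the TG effect was 0.8662 ± 0.1392 for Knstrn and 0.8538 ± 0.1371 for Racgap1 (adjusted p = 0.0179 for both), and 0.5044 ± 0.0857 for Bub1b (adjusted p = 0.0296). It was 0.7302 ± 0.1437 for Ncapg2, 0.6963 ± 0.1322 for Hmmr, 0.6452 ± 0.1244 for Ckap2l and 0.5995 ± 0.1174 for Kif2c (adjusted p = 0.0394 for these 4). The F statistic for dependence on strain was 15.542 for Bub1b, 12.754 for Racgap1, 11.762 for Hmmr and 11.365 for Knstrn (adjusted p from 0.00706 to 0.0178). It was 8.7584 for Kif2c, 8.6821 for Ncapg2, 8.5083 for Kif20a, 8.1813 for Aurkb and 7.9639 for Cenpf (adjusted p from 0.0385 to 0.0466). All 10 genes had their largest TG minus WT difference in A/J, and with A/J left out limma called 0 of 57 in either test (20 and 15 at an unadjusted p under 0.05). With a mouse left out, the count of 7 ran from 2 to 17 and that of 9 from 0 to 25. No lone WT mouse was left out for the first count. In the second, 0 came without the A/J WT mouse, which takes A/J out of the test.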

How the results depend on the processing

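Counts are of the 57 genes. Contrasts of group means that use a lone WT mouse were not fitted without it. Their ranges cover fits without each of 22 mice for prone strains and 21 for resistant strains. For the difference of effects and for prone against resistant WT mice there were 19 such fits. Within strains other than C57BL/6J, TG mice alone were left out. Over all strains 43 rose, with 28 when C57BL/6J was left out and a range of 28 to 44 with a mouse left out, the lowest without the A/J WT mouse. In prone strains the count of 48 became 31 without A/J and ran from 47 to 49 with a mouse left out. In resistant strains the count of 3 became 9 with array weights, 0 without 129 or without C3H and 5 without BALB/cJ, and ran from 2 to 8 (6, 8 and 5 without A/J TG mouse 1, 2 and 3, 7 without BALB/cJ TG mouse 3, 5 without C3H TG mouse 3). For prone against resistant TG mice 51 became 30 without A/J, with a range of 49 to 52, and for WT mice the count was 0 throughout. The difference of effects, 7, became 17 with array weights, 4 with dim genes left out (41 of the 57 tested), 0 without 129, A/J or BALB/cJ, 21 without AKR/J, 3 without C3H and 2 without C57BL/6J, and ran from 2 to 17, the highest without A/J TG mouse 2 and 3 or 4 without 1 mouse of 129 (TG 2), AKR/J (TG 1), C3H (TG 2) or C57BL/6J (WT 1, WT 2, TG 2). It was 2 without BALB/cJ TG mouse 1 or C57BL/6J TG mouse 1. Strain dependence, 9, became 29 with array weights and 0 without A/J. It ran from 0 (without the A/J WT mouse, which takes A/J out of the test) to 25 (without the second A/J TG mouse). Strain differences among TG mice ran from 52 to 54. Within strains the ranges were 45 to 49 in A/J, 2 to 13 in C57BL/6J, 0 to 3 in AKR/J and 0 to 0 in 129, BALB/cJ and C3H, with 2 in 129 under array weights and 1 in AKR/J with arrays centred on their medians. The change of Mcm4 over all strains reversed to -0.0083 without A/J or without its WT mouse, and ran up to 0.0765 with a mouse left out. Bub1 turned to 0.0284 without 129 and 0.0914 without BALB/cJ, and ran from -0.2582 to 0.0914 with a mouse left out. Kif18a turned to 0.0027 and 0.0077 in the same fits and ran from -0.0875 to 0.0077. The cause of these shifts was not tested. Over all strains, calls of single genes among the 57 were lost 47 times with a mouse left out (in 16 genes, 8 of them only without the A/J WT mouse), 38 times with a strain left out and 9 times otherwise, and gained 5, 2 and 2 times. No sign turned but those of Mcm4, Bub1 and Kif18a. Quantile normalisation, another variance prior and the mean of probe sets moved no count by over 1.5 times.

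The replicate number as a block gave 8 in resistant strains, 3 for the difference of effects and 5 in AKR/J, and no other count moved by over 1.5 times. Same-numbered mice did not deviate together (r from -0.154 to 0.128, median -0.017, against -0.182 to 0.23 for other pairs). Groups of 1 mouse give no deviation, so C57BL/6J alone had TG and WT mice in this check (r = 0.058). It therefore cannot tell whether the numbers pair the lone WT mice with TG mice.

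Precision is limited by 1 WT mouse in 5 of 6 strains. The table used here covers part of the genome, and the log base is inferred.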
